A study of Rattus norvegicus with 8 samples.

Results

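The genes described here are 7 enzymes of cholesterol synthesis, Hmgcs1, Idi1, Fdps, Fdft1, Sqle, Lss and Cyp51, and Insig1, which encodes a sterol-sensing regulator of the same pathway. They were taken by symbol, and every array probe whose RefSeq accession maps to one of them was kept. That gave 14 probes for 8 genes among 41012 probes on the array, of which 15184 (37.0%) could be named, for 12206 genes. All 14 passed the detection filter. The set was proposed as genes of synthesis and uptake, but it holds no uptake gene, so uptake is described below from a separate list.

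The arrays were Agilent 1-colour arrays of hippocampal RNA from 8 male Wistar rats, each hybridised singly. Controls (n = 4) received CE-2, a standard chow, and the CCH group (n = 4) received CE-2 to which coral calcium hydride (CCH) powder had been added at 0.1%. Feeding began at 6 weeks of age and tissue was taken at 8 weeks. Sample descriptions name a hemiparkinsonian model and L-DOPA, which the titles and treatment fields do not, and grouping was by title.

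Slide 1 carried all controls and slide 2 all CCH samples, each scanned on its own, so a slide or scan effect and the diet cannot be told apart here. Between 76.3% and 79.9% of spots per array were well above background and 0 were saturated. The array's 75th percentile of signal lay between 563 and 700 for control arrays and between 642 and 882 for CCH arrays, with the highest on CCH replicate 1. That array stood apart from its group. Its median absolute deviation from the mean of the other 3 CCH arrays was 0.31 (log2) over all tested probes, against 0.13 to 0.17 for each other array measured the same way. A deviation over 0.5 was seen for 28.0% of tested probes there and for 8.06% to 12% on the other arrays. The differences of the 14 probes are therefore given with and without it. The 9 pyramidal neuron markers and 4 dentate granule neuron markers tested were well above background on all 8 arrays.

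Cholesterol is made in the cell from acetyl-CoA by way of mevalonate, isoprenoid phosphates, squalene and lanosterol. The brain makes its own cholesterol, because lipoproteins of the blood hardly cross the blood-brain barrier, and oligodendrocytes use much of it for myelin. The transcription factor SREBP-2 drives most genes of the pathway. When sterols are plentiful, INSIG proteins hold SREBP-2 and its escort SCAP in the endoplasmic reticulum, and the genes are switched down together.

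Promoters of the SREBP-2 targets often carry CCAAT boxes, the sites of the factor NF-Y, beside a sterol element. The 250 bases before the start of 3 of the genes are printed below from the RefSeq-based table of the GRCr8 assembly, which held 6 of the 8. Insig1 is shown because 1 of its probes was the only one whose groups did not overlap, Idi1 because it had the largest difference, and Fdps because its probes went opposite ways on CCH replicate 1. Each is 5′ to 3′ on the gene's strand, with CCAAT in either orientation in capitals.
Insig1 (chr4:8057770-8058019, minus strand): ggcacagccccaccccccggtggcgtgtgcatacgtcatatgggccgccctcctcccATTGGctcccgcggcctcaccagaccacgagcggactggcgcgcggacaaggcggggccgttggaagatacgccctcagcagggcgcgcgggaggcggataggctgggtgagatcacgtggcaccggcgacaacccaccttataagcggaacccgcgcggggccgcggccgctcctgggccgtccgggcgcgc
Idi1 (chr17:66547525-66547774, minus strand): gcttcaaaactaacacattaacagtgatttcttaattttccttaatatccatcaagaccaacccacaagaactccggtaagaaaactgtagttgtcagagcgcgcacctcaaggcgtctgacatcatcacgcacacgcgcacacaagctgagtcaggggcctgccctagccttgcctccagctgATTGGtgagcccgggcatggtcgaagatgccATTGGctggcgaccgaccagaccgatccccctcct
Fdps (chr2:176804817-176805066, minus strand): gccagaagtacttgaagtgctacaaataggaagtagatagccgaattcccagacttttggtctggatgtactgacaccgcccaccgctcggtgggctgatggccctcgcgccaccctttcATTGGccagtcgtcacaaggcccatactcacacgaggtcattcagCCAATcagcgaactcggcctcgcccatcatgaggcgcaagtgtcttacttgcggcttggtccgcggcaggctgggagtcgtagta

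CCAAT was found in 5 of the 6 stretches (Hmgcs1, Fdps, Insig1, Idi1 and Lss), against 34.0% of 33469 stretches of the same length in the table. Hmgcs1, Idi1 and Fdps each had a pair of boxes, those of Hmgcs1 beginning 188 and 133 bases before the start, those of Idi1 beginning 66 and 35 bases before the start and those of Fdps 130 and 85 bases before it. GGGCGG, the core site of the factor SP1, was found in 5 of 6 (Hmgcs1, Fdps, Insig1, Cyp51 and Lss), against 30.5% of all. The sterol element was searched as CACNCCAC, which was found in Insig1 alone of the 6, beginning 231 bases before the start, and in 4.89% of all. Its longer form TCACNCCAC, every match of which also holds the shorter one, was in 0 of 6 and in 0.974% of all. The E-box CACGTG was found in Insig1, beginning 79 bases before the start, and in 5.59% of all. Both strands were searched, and apart from the short and long sterol elements no motif contains another. A match is a description of letters and not of a bound site. Only these exact letters were searched, so a sterol element written otherwise would be missed. A stretch without a match was not shown to lack one.

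Between the diets, none of the 14 probes differed past the threshold. Over all 31618 tested probes limma called 55 at an adjusted p under 0.05 (0.174%; 0.0759% higher and 0.098% lower in CCH), and 0 of these were among the 14. An unadjusted limma p under 0.05 was reached by 0 of the 14, against 15.4% of all tested probes (8.79% higher, 6.59% lower). Groups did not overlap for 1 of the 14, with CCH lower, against 11.3% of all (6.59% with CCH higher, 4.7% with CCH lower). CCH was above control for 6 probes and below it for 8, with a median log2 difference of -0.018. Of all tested probes 55.1% were above and 44.9% below, with a median of 0.027. The number above control was 5 with quantile normalization, with median scaling and when only probes detected on every array set the scale, because the bright Fdps probe lay at 0.0057 and passed to the other side of 0. The 95% intervals of the 14 differences reached from -0.77 to 0.60 and each included 0, so a log2 difference of 1 in either direction lay outside every interval. These intervals rest on the spread among these arrays, which limma moderates towards that of all tested probes, and hold no estimate of a slide effect. Nothing here separates fewer cells of a type from less RNA per cell.

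**Figure D1:**
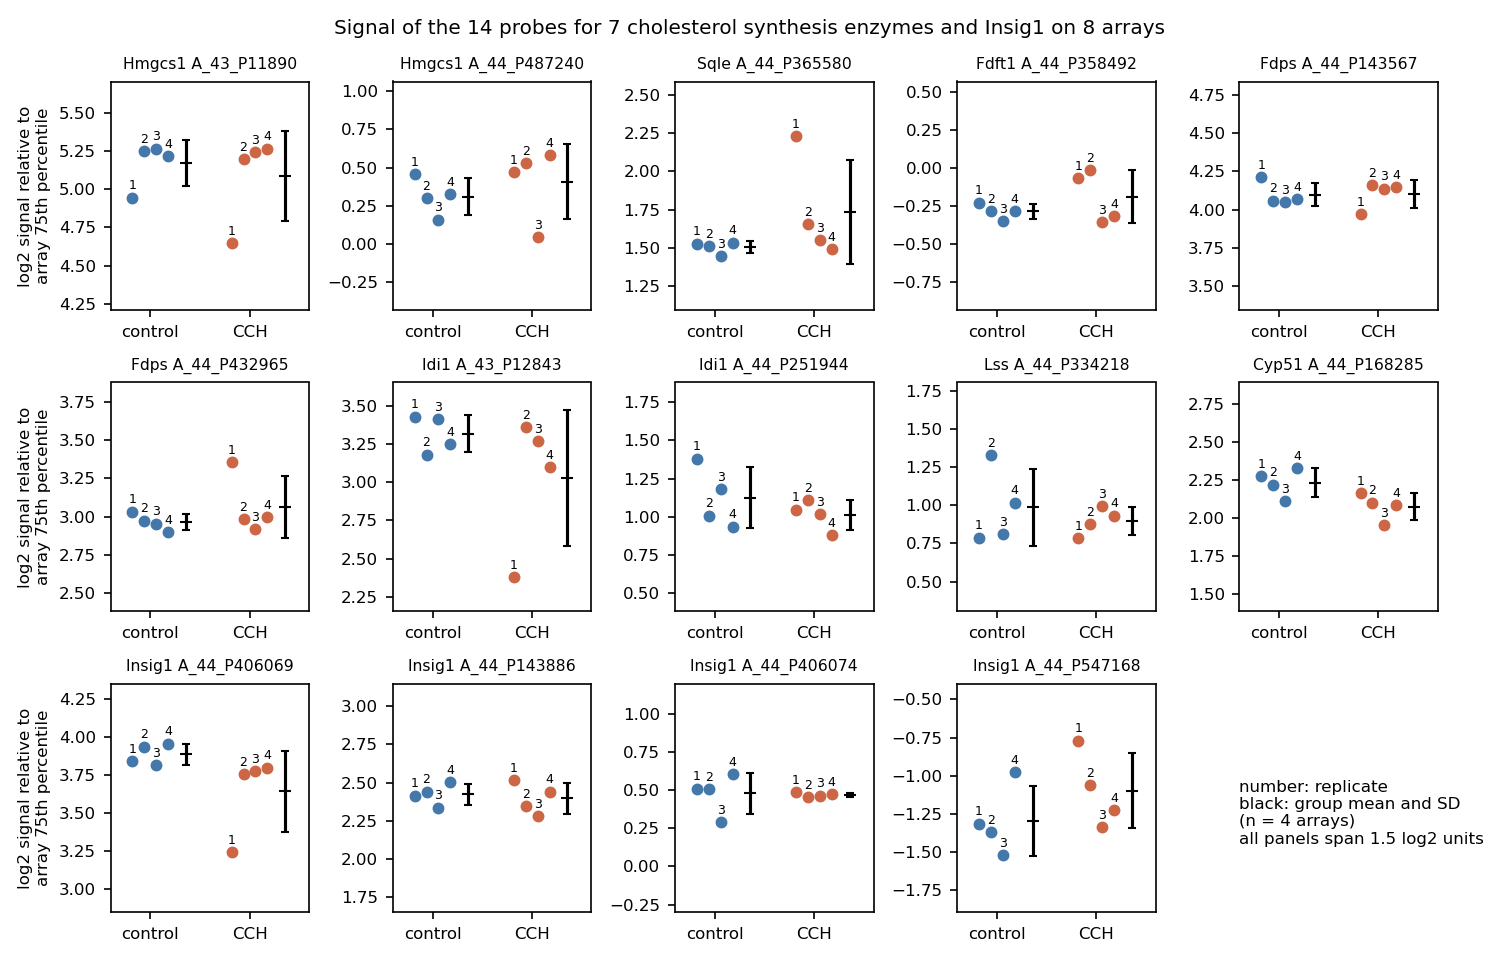
Log2 signal of each of the 14 probes relative to its array's 75th percentile, with 1 point per array, numbered by replicate, for 4 control and 4 CCH arrays; black marks are group means with SD, and all panels span the same height in log2 units. The groups overlap in every panel except the brightest Insig1 probe, and CCH replicate 1 lies far from the other CCH arrays for Hmgcs1 (A_43_P11890), Sqle, Idi1 (A_43_P12843) and Insig1 (A_44_P406069).

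The mevalonate part of the pathway opens with Hmgcs1, the cytosolic HMG-CoA synthase. On its brighter probe (A_43_P11890) the log2 signal above the array's 75th percentile was 4.95, 5.25, 5.27 and 5.22 on control replicates 1 to 4 and 4.65, 5.20, 5.24 and 5.27 on CCH replicates 1 to 4. Replicate 1 was the low array of both groups, and the other arrays of both lay within the same narrow band. The difference was -0.081 ± 0.16 (SE, n = 4 per group, limma adjusted p = 0.850). It was 0.066 without CCH replicate 1 and 0.025 with array weights. On the second probe (A_44_P487240) the levels were 0.46, 0.30, 0.16 and 0.32 in the controls and 0.47, 0.53, 0.05 and 0.58 in CCH. CCH replicate 3 was the lowest array and CCH replicates 2 and 4 the highest, and the difference was 0.097 ± 0.14 (SE, limma adjusted p = 0.785), or 0.076 without CCH replicate 1.

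Idi1, the isopentenyl-diphosphate isomerase, showed the largest difference of the 14. On its brighter probe (A_43_P12843) the controls stood at 3.43, 3.18, 3.42 and 3.25, and CCH replicates 1 to 4 at 2.378, 3.359, 3.271 and 3.098. CCH replicate 1 was far below all others, and CCH replicates 2 and 3 lay within the range of the controls. Before scaling, too, the processed signal was lowest there, at 4583 against 5493 to 7678 on the other CCH arrays. The difference was -0.29 ± 0.21 (SE, limma adjusted p = 0.557) with all arrays and -0.077 without CCH replicate 1. The second probe (A_44_P251944) was at 1.38, 1.01, 1.18 and 0.93 in the controls and at 1.05, 1.11, 1.02 and 0.88 in CCH, a difference of -0.11 ± 0.12 (SE, limma adjusted p = 0.706), or -0.12 without CCH replicate 1. Here CCH replicate 1 lay among the other CCH arrays and control replicate 1 was highest.

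Fdps makes farnesyl diphosphate, from which the sterol and the non-sterol branches part. Its brighter probe (A_44_P143567) was at 4.21, 4.06, 4.05 and 4.07 in the controls and 3.97, 4.16, 4.14 and 4.15 in CCH, a difference of 0.0057 ± 0.086 (SE, limma adjusted p = 0.984), or 0.051 without CCH replicate 1. Replicate 1 was the highest control and the lowest CCH array. The second probe (A_44_P432965) was at 3.03, 2.97, 2.95 and 2.90 in the controls and 3.36, 2.98, 2.92 and 2.99 in CCH. On this probe CCH replicate 1 was the highest array, the opposite of the first probe. The difference was 0.098 ± 0.11 (SE, limma adjusted p = 0.733) and was -0.000195 when that array was left out.

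Fdft1, the squalene synthase, commits the pathway to sterols. It was at -0.23, -0.28, -0.35 and -0.28 in the controls and -0.07, -0.01, -0.35 and -0.32 in CCH (A_44_P358492). CCH replicates 1 and 2 were above every control, CCH replicate 4 was within their range and CCH replicate 3 just below it, with a difference of 0.098 ± 0.10 (SE, limma adjusted p = 0.709). It was 0.057 without CCH replicate 1. Sqle, the squalene epoxidase and a rate-limiting enzyme of the sterol branch, had controls within 1.45 to 1.53 (A_44_P365580). CCH replicates 1 to 4 were at 2.23, 1.65, 1.55 and 1.49, so CCH replicate 1 alone was well above the rest, with a processed signal of 4145 against 1802 to 2356 on the other CCH arrays. The difference of 0.23 ± 0.16 (SE, limma adjusted p = 0.557) was the largest upward one of the 14 and was 0.060 without that array.

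Lss closes the ring to lanosterol, and Cyp51, the lanosterol demethylase, takes the first step beyond it. Lss (A_44_P334218) was at 0.79, 1.33, 0.81 and 1.02 in the controls and 0.78, 0.87, 1.00 and 0.93 in CCH. All CCH arrays lay within or just below the control range, whose width came from control replicate 2, and the difference was -0.090 ± 0.13 (SE, 95% interval -0.39 to 0.21), or 0.024 without control replicate 2 and -0.052 without CCH replicate 1. Cyp51 (A_44_P168285) was at 2.28, 2.22, 2.11 and 2.33 in the controls and 2.16, 2.10, 1.95 and 2.09 in CCH. Only CCH replicate 1 lay above the lowest control, and the difference was -0.16 ± 0.09 (SE, 95% interval -0.36 to 0.05, limma adjusted p = 0.449). Its difference ranged from -0.20 to -0.12 over the alternative settings, with no call in any, and was -0.19 without CCH replicate 1.

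Insig1 encodes the endoplasmic reticulum anchor of the SCAP and SREBP complex, and is itself switched on by SREBP, which makes it a common readout of the pathway. Its brightest probe (A_44_P406069) was at 3.84, 3.93, 3.81 and 3.95 in the controls and 3.24, 3.75, 3.77 and 3.80 in CCH. Every CCH array was below every control, 3 of them by a small margin and CCH replicate 1 by a wide one. The difference was -0.24 ± 0.14 (SE, 95% interval -0.55 to 0.07, limma adjusted p = 0.448), and -0.11 without CCH replicate 1 (limma adjusted p = 0.394). With quantile normalization Insig1 (A_44_P406069) had an unadjusted limma p of 0.0443 and an adjusted p of 0.313. The other Insig1 probes map to the same transcript accession and gave overlapping groups. A_44_P143886 differed by -0.027 ± 0.088, A_44_P406074 by -0.0098 ± 0.09 and A_44_P547168 by 0.20 ± 0.16 (SE, limma adjusted p from 0.613 to 0.974). The last was at -1.31, -1.37, -1.52 and -0.97 in the controls and -0.77, -1.06, -1.34 and -1.22 in CCH, with CCH replicate 1 the highest array. Without that array these 3 probes differed by -0.067, -0.016 and 0.086. Averaged over its 4 probes, Insig1 differed by -0.021 ± 0.079 (SE).

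**Figure D2:**
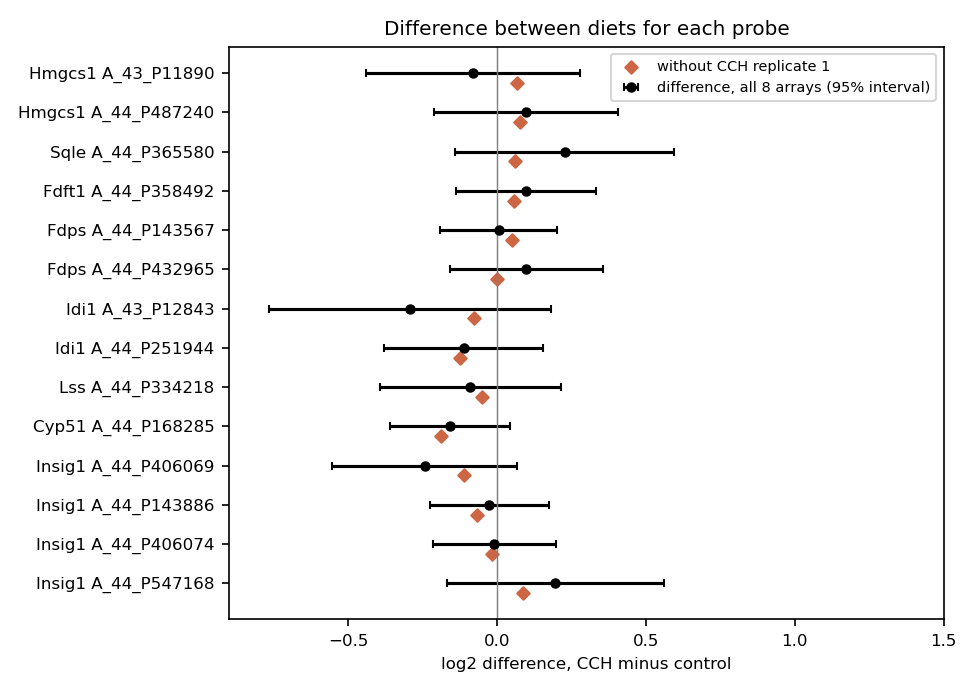
Log2 difference (CCH minus control) of each of the 14 probes with its 95% interval from limma over all 8 arrays (black) and the difference without CCH replicate 1 (orange diamonds). All 14 intervals include 0, and the largest differences, those of Idi1 (A_43_P12843), Insig1 (A_44_P406069) and Sqle, lie nearer 0 without that array.

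The probes of a gene did not deviate together on CCH replicate 1. Against the mean of the other 3 CCH arrays, the brightest probe of each of the 4 genes with several probes was lower there, by -0.59 for Hmgcs1, -0.18 for Fdps, -0.86 for Idi1 and -0.53 for Insig1. The other probes of these genes were higher there, by 0.08 for Hmgcs1, 0.39 for Fdps, 0.04 for Idi1 and 0.16, 0.02 and 0.44 for Insig1. The same order was common on that array, a comparison chosen after the values were seen. Of 2265 genes with more than 1 tested probe, the brightest deviated below the dimmest for 64.1% on CCH replicate 1 and for 33.4% to 62.8% on the other arrays, the upper end being control replicate 1. The 2531 tested probes with a mean level of 3 or more deviated by a median of -0.18 on CCH replicate 1, -0.10 on control replicate 1 and -0.04 to 0.12 on the others. These arrays also had the highest 75th percentile of their slides, 882 and 700, and both lay at position 1 of their slide. On both slides the replicate number was also the position. The part of these arrays and of slide position in the values of Hmgcs1, Idi1, Sqle and Insig1 was not tested.

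**Figure D3:**
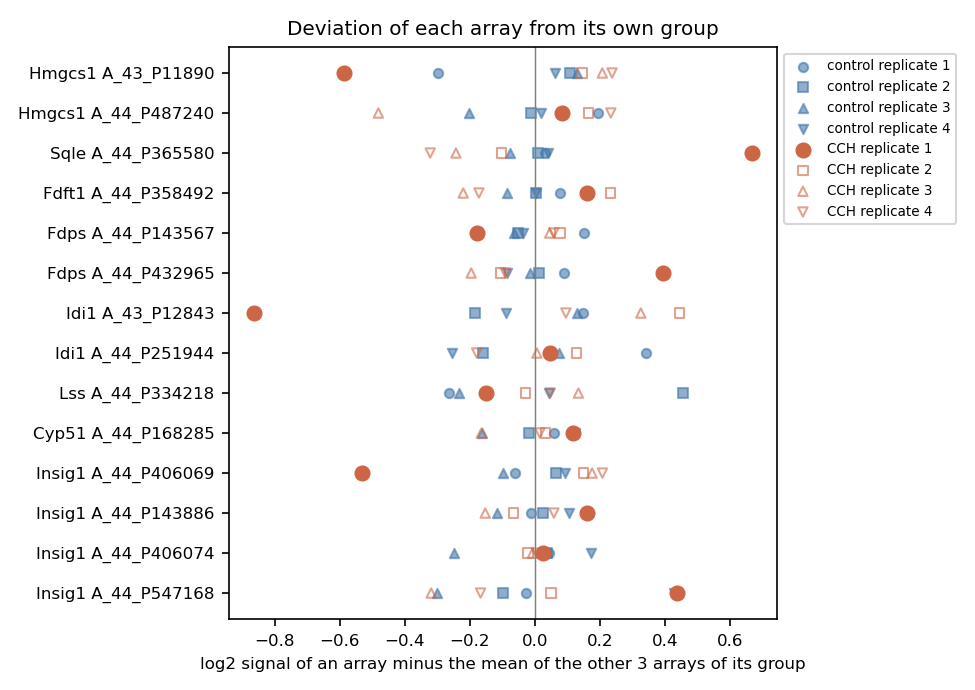
Deviation of each array from the mean of the other 3 arrays of its group, in log2, for the 14 probes; filled large circles are CCH replicate 1, other symbols the other 7 arrays. CCH replicate 1 is at -0.86 for the brighter Idi1 probe and at 0.67 for Sqle, and is beyond 0.5 from its group for 4 probes, which no other array reached for any.

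Among rats on the same diet, the genes did not share a profile. The median SD within groups was 0.17 over the 14 probes, against 0.20 over all tested probes. On the brightest probe of each gene it was 0.19 over the 8 genes, against 0.18 over 9741 named genes. With group means removed, 43 of 82 pairs of probes of different genes had a correlation above 0 over the 8 arrays, with a median r of 0.04. Without CCH replicate 1 there were 51 of 82 above 0, with a median of 0.11. Taking the brightest probe of each gene against the mean of the other genes, r ran from -0.72 for Sqle to 0.53 for Insig1. These points share slides and scaling, and are a description only. Of 9261 other genes well above background on all arrays, those most like the mean of the 8 were Sgtb, Ube2v2, Spred1, Slit3 and Efnb3. Their r was between 0.97 and 0.98 over 8 arrays and between 0.90 and 0.93 without CCH replicate 1. The latter reuses arrays by which they were picked. Of the 9261 genes, 52 had an r over 0.9, and the median r was 0.0045.

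The rest of the synthesis route was measured for 15 of 16 listed enzymes, 8 above control and 7 below, with a median log2 difference of 0.00 and 0 called. The lists of related genes were chosen with earlier results of these data known. Dhcr7, which makes cholesterol from 7-dehydrocholesterol, had all CCH arrays above all controls, at 0.17 ± 0.08 (SE, limma adjusted p = 0.368). Of all tested probes, 6.59% had all CCH arrays above all controls. Below control, the smallest p belonged to Sc5d, the sterol desaturase, at -0.17, and Msmo1, the methylsterol monooxygenase, at -0.11.

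The control genes of the pathway were also without calls, with 6 of 9 above control, a median of 0.03 and 0 of 9 at an unadjusted p under 0.05 on the brightest probe of each gene, against 15.4% of all tested probes. Srebf2, which encodes SREBP-2, differed by -0.17 ± 0.13 (SE, limma adjusted p = 0.591) on its brighter probe and by 0.16 ± 0.12 (SE) on the other. Scap, the escort of SREBP, was at 0.018 ± 0.094 (SE), -0.028 without control replicate 1, -0.012 without CCH replicate 3 and -0.011 without CCH replicate 4. Insig2, the paralog of Insig1, was at 0.091 ± 0.13 (SE) and at -0.0063 without CCH replicate 1. Mbtps2, a protease that frees SREBP, was at -0.25 ± 0.19 (SE). Nfyb, a subunit of the CCAAT-binding NF-Y, was at 0.11 ± 0.08 (SE) with groups that did not overlap. Its probe A_44_P880152 was at 0.87 ± 0.16 (SE, limma adjusted p = 0.0611) and A_44_P212878 at -0.0038 ± 0.086 (SE). Nfyc, another NF-Y subunit, was at 0.032 ± 0.086 (SE) on its brightest probe and at 0.50 ± 0.12 (SE, limma unadjusted p = 0.00358, adjusted p = 0.119) on A_44_P174682, where the groups did not overlap. These further NF-Y probes were singled out after their values were seen. On brightest probes, groups did not overlap with CCH higher for 1 of the 9 genes, against 6.59% of all tested probes.

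Uptake and lysosomal release genes were above control for 7 of 10, with a median of 0.10 and 0 called. Mylip, a ubiquitin ligase, was at 0.19 ± 0.11 (SE, limma adjusted p = 0.486). Lipa, the lysosomal acid lipase that frees cholesterol from its esters, was at 1.41, 1.18, 1.28 and 1.35 in the controls and 1.15, 1.03, 1.08 and 1.12 in CCH. Those groups did not overlap, with a difference of -0.21 ± 0.08 (SE, limma unadjusted p = 0.0362, adjusted p = 0.288). This was 1 of 10 genes without overlap and with CCH lower, against 4.7% of all tested probes. Npc2, which carries freed cholesterol in the lysosome, was at -0.11 ± 0.14 (SE), or 0.019 without control replicate 1.

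Efflux, storage and turnover genes were above control for 7 of 12, with a median of 0.06 and 0 called. The sterol-sensing receptor gene Nr1h2 was at 0.13 ± 0.09 (SE), and the transporter gene Abcg4, dim at -5.16 in the controls, at 0.13 ± 0.13 (SE) or -0.14 with normexp. Lcat, which esterifies cholesterol on lipoproteins, was at -0.12 ± 0.19 (SE). Ch25h, the cholesterol 25-hydroxylase, varied most among the controls, at 0.94, -0.96, 0.62 and -1.78, against -1.14, -0.87, -1.26 and -1.20 in CCH. The high control replicates 1 and 3 were also those with the highest mean level of meninges and fibroblast markers, 3.19 and 2.68 against -0.14 to 1.83 on the other arrays, and its part in the difference of -0.82 ± 0.55 (SE) was not tested. That difference was -0.41 without control replicate 1, -0.52 without control replicate 3 and -1.31 without control replicate 4.

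Of the fatty acid genes that SREBP factors also drive, 8 of 14 were above control, with a median of 0.04 and 0 called. Me1, the malic enzyme that supplies NADPH, was at 4.96, 5.02, 4.87 and 5.01 in the controls and 4.50, 4.77, 4.82 and 4.78 in CCH. Both its probes had all CCH arrays below all controls, by -0.25 ± 0.10 (SE, limma adjusted p = 0.283) and -0.25 ± 0.08 (SE, adjusted p = 0.203). Elovl6, a fatty acid elongase, did likewise at -0.29 ± 0.16 and -0.21 ± 0.09 (SE, limma adjusted p of 0.441 and 0.322), the first at -0.12 without CCH replicate 1. On brightest probes these were 2 of 14 genes with all CCH arrays below all controls, against 4.7% of all tested probes. Both were named for having the smallest p in that direction. Scd, the stearoyl-CoA desaturase, was at 0.21 ± 0.11 (SE) and Fasn, the fatty acid synthase, at 0.15 ± 0.10 (SE) and 0.05 ± 0.11 (SE) on its probes.

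Genes of the non-sterol branches, which use farnesyl and geranylgeranyl groups or dolichol, were above control for 8 of 11, with a median of 0.13 and 0 called. An unadjusted p under 0.05 was reached by 3 of the 11 (2 higher, 1 lower), against 15.4% of all tested probes. On the brightest probe of each of 9741 named genes, 720 were higher and 638 lower at that p. It was reached by 1 of 10 uptake and lysosomal genes, 0 of 12 efflux, storage and turnover genes and 1 of 14 fatty acid genes. Dpm1, which makes dolichol-linked mannose, was at 0.22 ± 0.08 (SE, limma adjusted p = 0.276) and Zmpste24, the prenyl protein protease, at 0.31 ± 0.12 (SE, adjusted p = 0.283), with 0.05 ± 0.15 (SE) on its other probe. Rabggtb, a subunit of the enzyme that prenylates RAB proteins, was at -0.20 ± 0.08 (SE, adjusted p = 0.293). Fnta, a subunit of farnesyltransferase, was at -0.14 ± 0.09 (SE).

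**Figure D4:**
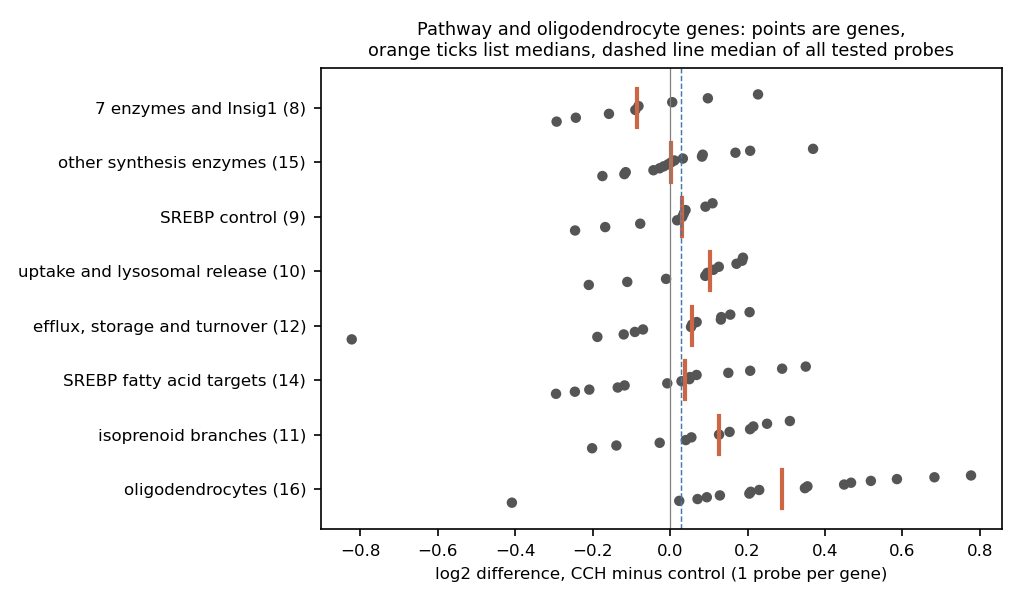
Log2 difference (CCH minus control) of each tested gene, 1 probe per gene, for the 7 enzymes with Insig1, the 6 lists of related genes and the oligodendrocyte markers; numbers in brackets count genes, orange ticks are list medians and the dashed line is the median of all tested probes, 0.03. The medians of the 7 pathway rows lie between -0.09 and 0.13, below the 0.29 of the oligodendrocyte markers, and no gene shown was called.

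Markers of the cells that could hold these transcripts were read beside them. Oligodendrocyte markers were above control for 15 of 16, with a median of 0.29, 9 at an unadjusted p under 0.05 (15.4% of all probes) and 0 called. Their mean log2 level was 2.19 to 2.39 on the control arrays and 2.43 to 2.69 on the CCH arrays, without overlap, led by Mal at 0.68 ± 0.10 and the galactolipid enzyme Ugt8 at 0.78 ± 0.12 (SE, limma adjusted p = 0.0529 each). Mal passed the threshold in 5 alternative settings and Ugt8 in 4, among them detection on all 8 arrays (adjusted p = 0.0408 each) and without CCH replicate 1 (0.0365 and 0.0337), while Ugt8 was at 0.34 (adjusted p = 0.136) with normexp. The mean level of the 7 enzymes with Insig1, over the same arrays, was 2.57 to 2.65 in the controls and 2.42 to 2.64 in CCH, where the 2.42 was CCH replicate 1 and the other 3 arrays lay between 2.56 and 2.64. Precursor markers were above control for 5 of 6 (median 0.27), with 3 at an unadjusted p under 0.05, all higher. Their mean level, 0.63 to 0.74 in the controls and 0.81 to 1.07 in CCH, did not overlap either. Pyramidal neuron markers were above control for 5 of 9 (0.15), dentate granule markers for 3 of 4 (0.11) and astrocyte markers for 4 of 11 (-0.06). Microglia markers were below control for 9 of 12 (median -0.16), 3 of these at an unadjusted p under 0.05. The median was -0.07 for 8 interneuron markers, 0.01 for 10 vascular markers, -0.24 for 9 meningeal and fibroblast markers and -0.0039 for 6 blood markers. Of the 6 blood markers, 3 were above control and 3 below. Cd3e was called higher, at 1.02 ± 0.14 (SE, limma adjusted p = 0.0432), against 0.0759% of all tested probes. S100a8 was at -0.85 ± 0.42 (SE). Cd3e and S100a8 were named after their values were seen. Choroid plexus and ependyma markers were below control for 11 of 11, led by Tmem72 at -2.17 ± 0.99 and Ttr at -3.03 ± 1.60 (SE, limma adjusted p of 0.345 and 0.416). Tmem72 was at -0.63 with normexp and -1.12 without CCH replicate 2, and Ttr at -1.93 without CCH replicate 4. Their mean level was -1.05 to 1.55 in the controls and -4.05 to 1.08 in CCH, where replicates 2 and 4 were low, and 8 of the 11 were well above background on all 8 arrays. The part of these cell types in the values above was not tested.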

How the data were processed

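Feature Extraction 9.5 (Agilent) is named by the submitters' processing notes. Per the file headers, the authors deposited each spot's processed signal as an intensity on a linear scale after background subtraction, not yet normalized across arrays. A second deposited table repeats these intensity values rounded (largest relative difference 0.00498). Here log2 of the signal was taken and the 75th percentile of the array's 43379 non-control spots subtracted. Spots with outlier marks (55 to 122 per array) were set to missing and spots of a probe averaged. A probe was tested if well above background on at least 4 of 8 arrays with at least 3 values per group. The test of CCH against control used limma 3.58.1 (R 4.3.3; lmFit, then eBayes) and was tested on simulated data. Its two-sided p-values were adjusted by Benjamini and Hochberg's method across every tested probe, with 0.05 as the threshold. Where a gene had several probes, related lists used the brightest. Names came from RefSeq accessions in a GRCr8 table; the array grid names rn4, so no probe coordinates are given, and the promoter coordinates are those of the GRCr8 table.

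Besides the 8 genes, named genes were, per related list, the 2 smallest p in each direction, plus Srebf2, Scap and Insig2, the 2 leading oligodendrocyte and choroid plexus markers, and the 5 genes most like the mean profile; further probes of named genes, and a few marked in the text, were added after values were seen. A few genes chosen this way are not reported here. The genes and lists were chosen with earlier results of these data known. Alternatives were normexp on spot and background medians (offset 50; the plan named spot means), quantile, median and detected-probe scaling, other filters, kept marks, eBayes trend, array weights, a replicate block, the mean of a gene's probes and leaving out each array. A slide block was not run, since slide equals diet.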

Additional observations from a re-analysis of the deposited data

Results flagged for a closer look

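For the named probes, each group of 4 arrays was searched for an array whose gap to its nearest neighbour took up more of the group's range than Dixon's 95% critical value. Of 98 groups 10 did so, and chance alone marks about 1 in 20. CCH replicate 1 was the distant array in 6 of them. It was at 4.65 for Hmgcs1 (A_43_P11890; the others 5.20 to 5.27), 3.97 for Fdps (A_44_P143567; 4.14 to 4.16) and 3.24 for Insig1 (A_44_P406069; 3.75 to 3.80). It was also low at 1.39 for Dhcr7 (1.47 to 1.48), 4.50 for Me1 (4.77 to 4.82) and 1.75 for Elovl6 (2.40 to 2.49). Control replicate 1 was low at 4.95 for Hmgcs1 (A_43_P11890; 5.22 to 5.27) and high at 4.21 for Fdps (A_44_P143567; 4.05 to 4.07). Control replicate 3 was low at -0.74 for Sgtb (-0.56 to -0.54) and -1.95 for Spred1 (-1.69 to -1.67), which are genes picked for their likeness to the mean profile.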

How the results depend on the processing

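The count of called probes among the 14 was 0 in every setting run, including the replicate block and each array left out. Among the related genes, read from the brightest probe of each gene, it was also 0. Further probes of these genes, such as A_44_P880152 of Nfyb, were not counted in the alternative settings. Over all probes the count of 55 (24 higher, 31 lower) moved to 246 with normexp (69 and 177), 29 with no detection filter, 209 with detection on all 8 arrays, 215 with eBayes trend, 1361 with array weights and 0 with the replicate block. With 1 array left out it ran from 0 to 733, and the 733 came without CCH replicate 1. Same-numbered arrays, which held the same position on their slides, had deviations that correlated by 0.15, 0.08, -0.0048 and 0.25. Of 8 arrays, 3 matched best with their own number, so the numbers were not taken as pairs.

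Signs turned in 33 of 881 values of single probes, including genes not reported here, and the cause was not tested. The bright Fdps probe was at -0.00195 with quantile, -0.00435 with median and -0.0087 with detected-probe scaling, and from -0.013 to 0.051 with 1 array left out. With normexp Abcg4 was at -0.14 and Efnb3 at -0.076. With array weights Hmgcs1 (A_43_P11890) was at 0.025, Spred1 at 0.045 and Slit3 at 0.067. With 1 array left out the ranges were -0.16 to 0.066 for Hmgcs1 (A_43_P11890), -0.000195 to 0.15 for Fdps (A_44_P432965), -0.16 to 0.024 for Lss, -0.067 to 0.012 for Insig1 (A_44_P143886) and -0.072 to 0.033 for Insig1 (A_44_P406074). They were -0.0063 to 0.16 for Insig2, -0.20 to 0.019 for Npc2, -0.028 to 0.065 for Scap, -0.24 to 0.0083 for Lcat, -0.12 to 0.031 for Spred1, -0.072 to 0.066 for Slit3 and -0.021 to 0.18 for Efnb3. With 4 arrays per group, the 95% intervals of the 14 probes set what could be seen.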
